A study of Mus musculus with 16 samples.

Results

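Expression of 9 genes with synaptic roles was followed in tail tendon fascicles, the collagen-rich strands pulled from the mouse tail. The 9 genes, out of 25719 listed, were named by symbol from results of these same libraries. They are the adhesion genes Cadm1, Cadm2, Cadm3 and Cadm4, the receptor gene Grid1, the postsynaptic scaffold gene Dlgap1, the exocytosis genes Cadps and Cadps2, and the receptor auxiliary gene Kctd16. Some were named for near on-off differences between genotypes and the rest of the Cadm genes as their paralogues. The genotype difference is therefore a description for the genes named for it, and p-values are given for the paralogues Cadm1, Cadm3 and Cadm4 alone. Of the 9, 7 passed the filter on low counts and 2 (Grid1 and Cadps2) did not.

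RNA was sequenced from 8 libraries labelled wild type and 8 labelled knockout. The knockout carried floxed Vhl alleles and ScxCre, a Cre recombinase driven by control sequence of the tendon gene Scx, so that Vhl is deleted in cells of the Scx lineage and left intact in other cells. Whether wild type mice carried Cre or a floxed allele, and the age and sex of the mice, are not stated in the labels. All libraries came from whole fascicles with every cell type of the tissue, and nothing says which libraries came from separate mice, so p-values measure the spread between these libraries. Vhl encodes the substrate-recognition part of a ubiquitin ligase that marks the hypoxia-inducible factor HIF1α for degradation, and the series title concerns the part of HIF1α in the response of tendon to overload.

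Cadm proteins are immunoglobulin-type adhesion molecules that bind each other across the gap between neighbouring cells, at synapses and in many epithelia, and anchor to the cytoskeleton through their short tails. At the postsynaptic side, Dlgap1 links the PSD-95 scaffold to Shank proteins, and Grid1 encodes a delta-type glutamate receptor that binds cerebellins. Cadps and Cadps2 encode CAPS proteins, which prime dense-core vesicles for calcium-triggered release. Kctd16 is a cytosolic auxiliary subunit of the GABA-B receptor.

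Library totals ran from 10488355 to 18753254 counts in knockout libraries and from 10792900 to 16379401 in the wild type. Levels are given as CPM (counts scaled to a common library size after TMM correction), and 3 counts were taken as the floor of detection, equal to between 0.145 and 0.336 CPM. Vhl ranged from 14.1 to 25.8 CPM under the wild type label and from 7.51 to 10.9 CPM under the knockout label, so the libraries followed their labels. Of all 14803 tested genes, 48.3% had an adjusted p under 0.05 (quasi-likelihood F test of edgeR, corrected by Benjamini and Hochberg's method), 25.6% higher and 22.7% lower in the knockout. In 19.4% the 8 libraries of each genotype did not overlap. Scaling by total counts in place of TMM shifted the median log2 difference over all tested genes from 0.02 to 0.32, and the share of calls that were higher from 53.0% to 85.4%. Skeletal muscle markers varied widely between libraries (summed levels of 106 to 26180 CPM), as did Scx, so results were also computed without the 4 libraries highest in each. The mean log2 CPM of Y-linked genes was 5.61 to 5.72 in knockout libraries 1 and 6 and wild type libraries 7 and 8. In all others it was at most -2.63, so by this measure each genotype held male and female libraries.

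The description as genes switched on held for Cadps and Kctd16, which were at or under 1 count in every wild type library and abundant in the knockout. Cadm2 and Dlgap1 were strongly reduced in the knockout but not uniformly off: Cadm2 stayed above the floor in 5 of 8 knockout libraries and Dlgap1 in 8 of 8. In bulk tissue fewer cells of a type and less RNA per cell cannot be told apart. Cadm1 was lower in the knockout but well above the floor. Cadm3 and Cadm4 had overlapping levels in both genotypes, with a small difference in Cadm3. Cadps2 was scarce in both and Grid1 was near the floor in both, so neither showed a switch. Of the 7 genes past the filter, 6 had an adjusted p under 0.05 (2 higher, 4 lower), beside 48.3% of all tested genes, and 5 had groups without overlap, beside 19.4%. Since the genes were chosen on this contrast, nothing is read from these counts.

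**Figure D1:**
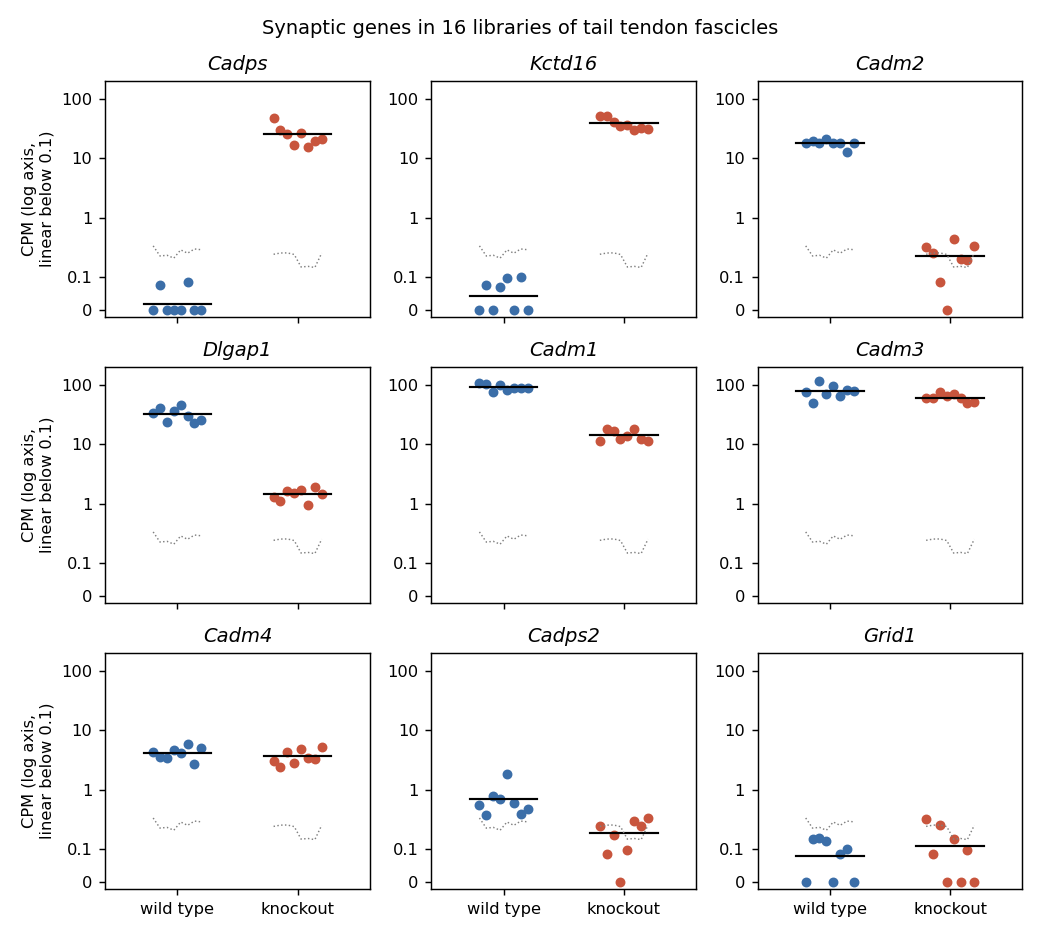
CPM of the 9 genes in each library (points, blue for wild type and red for knockout), with the mean of 8 libraries (black line) and the level of 3 counts in each library (dotted line). The vertical axis is logarithmic and linear below 0.1. Cadps and Kctd16 lie under the dotted line in every wild type library and at 15.6 CPM or more in every knockout library, Cadm2 and Dlgap1 lie at 13.0 CPM or more in wild type libraries and at most 1.89 CPM in the knockout, and Grid1 stays near or under the dotted line in both genotypes.

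Promoter sequence is shown for Cadps, Cadm2 and Dlgap1 from the RefSeq promoter table of build GRCm38.p6. The stretch ahead of each start site can thus be read beside its values. Kctd16, which also differed widely, was left out of the promoter search, so nothing is said of its window. Each runs from 250 bases before to 50 bases after an annotated start, on the strand of the gene. Capitals mark ACGTG or GCGTG on either strand (read as CACGT or CACGC on the other strand), the core letters of the element that HIF binds. The regions are chr14:12823030-12823329, minus strand for Cadps, chr16:67620859-67621158, minus strand for Cadm2, and chr17:69968823-69969122, plus strand and chr17:70561497-70561796, plus strand for the annotated starts of Dlgap1.
Cadps start 1: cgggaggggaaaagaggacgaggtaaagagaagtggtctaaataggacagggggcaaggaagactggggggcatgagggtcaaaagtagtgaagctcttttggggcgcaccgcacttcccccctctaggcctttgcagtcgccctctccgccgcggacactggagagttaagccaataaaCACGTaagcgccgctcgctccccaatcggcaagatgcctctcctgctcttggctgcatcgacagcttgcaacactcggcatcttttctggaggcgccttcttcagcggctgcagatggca
Cadm2 start 1: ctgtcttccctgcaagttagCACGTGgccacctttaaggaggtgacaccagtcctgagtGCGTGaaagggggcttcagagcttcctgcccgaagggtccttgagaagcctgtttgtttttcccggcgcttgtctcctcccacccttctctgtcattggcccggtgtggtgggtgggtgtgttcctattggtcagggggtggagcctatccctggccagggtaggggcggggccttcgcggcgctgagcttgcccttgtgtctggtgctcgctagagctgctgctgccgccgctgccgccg
Dlgap1 start 1: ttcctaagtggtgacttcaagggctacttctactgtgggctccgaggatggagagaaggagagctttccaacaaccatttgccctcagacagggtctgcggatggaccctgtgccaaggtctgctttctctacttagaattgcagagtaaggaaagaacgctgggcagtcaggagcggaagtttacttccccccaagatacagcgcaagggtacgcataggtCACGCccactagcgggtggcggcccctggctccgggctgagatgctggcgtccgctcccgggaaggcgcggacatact
Dlgap1 start 2: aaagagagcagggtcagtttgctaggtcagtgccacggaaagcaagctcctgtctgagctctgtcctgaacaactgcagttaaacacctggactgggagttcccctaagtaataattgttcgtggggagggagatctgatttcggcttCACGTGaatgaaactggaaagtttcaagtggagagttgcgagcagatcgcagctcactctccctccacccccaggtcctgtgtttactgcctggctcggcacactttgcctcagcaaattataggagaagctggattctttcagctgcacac

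The Cadps window held 1 match, an ACGTG on the other strand whose run began 70 bases before the start. The Cadm2 window held 3 matches, of which 2 were the same CACGTG read on both strands and 1 was a GCGTG beginning 191 bases before the start. Dlgap1 held a GCGTG on the other strand at 28 bases before its start 1, and a CACGTG, counted on both strands, ahead of its start 2. The scarce paralogue Cadps2 held 3 matches and Cadm4 held 3, whereas the Cadm3 window held none of these letters. Of 32851 windows of the same length, 43.8% held at least 1 match to either motif and 19.6% held ACGTG. Both motifs contain CG, and the median window held 7 CG pairs. The windows held 17 for Cadps, 15 for Cadm2, 15 and 7 for Dlgap1, 17 for Cadm3, 40 for Cadm4 and 54 for Cadps2. The part of CG content in the matches was not tested. No window was found for Cadm1 or Grid1. Matches stood ahead of genes of both directions, and they are letters in a window, not measured binding sites.

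Cadps (ENSMUSG00000054423, chromosome 14) encodes CAPS1, which docks and primes dense-core vesicles at the plasma membrane. Its counts were 0 or 1 in every wild type library, 2 in all, and ran from 208 to 601 with a median of 332 in the knockout. In CPM the knockout had a lowest value of 15.6, a median of 23.3 and a highest of 48.6. Knockout library 1 was highest and knockout library 6 lowest, and the genotypes did not overlap. The mean, 25.4 ± 10.6 CPM (SD, n = 8), was at least 95.2-fold higher than the mean wild type floor of 3 counts per library.

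Its paralogue Cadps2 (ENSMUSG00000017978, chromosome 6), which serves the same priming step, was scarce and on the other side. It had 4 to 19 counts per wild type library (median 6, 65 in all, exact Poisson 95% interval 50.2 to 82.8) and 0 to 6 per knockout library (median 2.5, 23 in all, 14.6 to 34.5). These intervals cover counting error only. The wild type was at 0.714 ± 0.470 CPM and the knockout at 0.185 ± 0.117 CPM (SD, n = 8). The ranges were 0.378 to 1.82 and 0 to 0.340 CPM, so they did not overlap, but 5 of the 8 knockout libraries were at the floor. Fitted without the filter on low counts, the log2 difference was -1.86 (SE 0.420). Per kilobase of annotated exon, knockout tendon held Cadps at 1.69 ± 0.707 and Cadps2 at 0.0194 ± 0.0123 CPM per kb, whereas wild type tendon held Cadps2 at 0.0746 ± 0.0491 CPM per kb with Cadps at the floor.

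Kctd16 (ENSMUSG00000051401, chromosome 18) encodes a subunit that binds the GABA-B receptor tail and shapes its coupling to G proteins. Wild type libraries had 0 or 1 count, 4 in all, and knockout libraries had 374 to 734, with a median of 603. The knockout CPM had a lowest value of 30.3, a median of 35.5 and a highest of 51.7. Knockout libraries 1 and 2 were highest, and the weakest knockout library lay at least 90.1-fold above the highest wild type floor. The mean, 38.8 ± 8.56 CPM (SD, n = 8), was at least 145-fold above the mean floor. In the GENCODE annotation 10.4% of its exon bases overlap a gene on the other strand, and since the use of strand in counting is not given in the sources used here, its counts are uncertain to that extent.

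The receptor that Kctd16 serves did not follow it. Gabbr1, which encodes the ligand-binding subunit, was at 40.8 ± 7.45 CPM in knockout libraries and 42.8 ± 5.22 in the wild type (log2 difference -0.07, SE 0.106, edgeR adjusted p = 0.614). Gabbr2, without which the receptor does not reach the surface, had 63 counts over all 16 libraries and was not tested. The related subunit Kctd12 was at 254 and 220 CPM and did not pass the threshold. Of its exon bases 64.2% overlap Gm26778 on the other strand or Mir5130 on the same strand, so its counts are uncertain. Kctd12b was lower by 0.34 on the log2 scale (edgeR adjusted p = 0.0200), a difference that was -0.04 with total counts and then not called. Of the 12 listed genes of the GABA-B receptor, its KCTD subunits and its potassium channels, 5 were tested, 0 were higher and 3 were lower, where 25.6% of all tested genes were higher and 22.7% lower. With total counts 1 was higher and 2 were lower. Gnao1, a G protein subunit abundant in neurons, fell by 1.18 (edgeR adjusted p = 1.16e-04). Gnb5 fell by 0.46 (edgeR adjusted p = 2.16e-05), with overlap between the groups. The 4 potassium channel genes of the list had 0 to 41 counts in total over all libraries.

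Cadm2 (ENSMUSG00000064115, chromosome 16) was the adhesion gene with the widest difference. The wild type had 131 to 298 counts per library with a median of 203, and the knockout 0 to 9 with a median of 4. In CPM the wild type had a lowest value of 13.0, a median of 18.3 and a highest of 20.8, and the knockout ranged from 0 to 0.445. Wild type library 7 was lowest and the other wild type libraries lay close together. The means were 18.04 ± 2.23 and 0.231 ± 0.143 CPM (SD, n = 8), a log2 difference of -6.19 (SE 0.227), or 72.8-fold. In 3 of the 8 knockout libraries Cadm2 was at or under the floor. A gene on the other strand overlaps 2.61% of its exon bases.

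Cadm1 (ENSMUSG00000032076, chromosome 9), the most widely expressed member of the family outside the brain, came in as a paralogue. It ranged from 76.5 to 108 CPM with a median of 89.8 in the wild type, and from 11.3 to 18.4 with a median of 13.2 in the knockout. No knockout library came near the lowest wild type library, and no library of either genotype was near the floor. The level fell by 2.69 on the log2 scale (SE 0.116, edgeR adjusted p = 5.58e-13), or 6.46-fold. All 16 fits that left out a library in turn kept the call, with log2 differences between -2.75 and -2.65.

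Cadm3 (ENSMUSG00000005338, chromosome 1), best known from neurons, was at 50.1 to 116 CPM (median 78.7) in wild type libraries and 49.2 to 75.2 CPM (median 60.4) in the knockout, with overlap. It passed the threshold at a log2 difference of -0.37 (SE 0.133, edgeR adjusted p = 0.0295). The call was lost without wild type library 3 (-0.28, adjusted p = 0.0506), which was the highest, without wild type library 5, knockout library 7 or knockout library 8, and with total counts (-0.09, adjusted p = 0.638). It was also lost without the 4 libraries highest in skeletal muscle markers (-0.22, adjusted p = 0.280) and without the 4 highest in Scx (-0.36, adjusted p = 0.124). Ackr1, whose exons overlap 4.98% of those of Cadm3 on the same strand, was at 9.19 ± 1.06 and 10.7 ± 2.30 CPM. Cadm4 (ENSMUSG00000054793, chromosome 7), which binds axonal Cadm3 at the surface of myelinating glia, was at 2.47 to 5.18 CPM in knockout libraries and 2.69 to 5.91 CPM in the wild type. Its log2 difference of -0.20 (SE 0.177) missed the threshold (edgeR adjusted p = 0.381) and became 0.11 with total counts.

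Scaled per kilobase of annotated exon, so that the 4 genes can be set side by side, Cadm3 and Cadm1 led the wild type at 10.96 ± 2.73 and 8.84 ± 1.04 CPM per kb (SD, n = 8). They did not differ beyond their spread. Cadm4 at 1.96 ± 0.463 and Cadm2 at 1.84 ± 0.227 CPM per kb followed, again within each other's spread. In the knockout the order was Cadm3 at 8.49 ± 1.18, Cadm4 at 1.71 ± 0.462, Cadm1 at 1.37 ± 0.288 and Cadm2 at 0.0235 ± 0.0146 CPM per kb, with Cadm4 and Cadm1 within their spread. The summed level of the 4 was 23.6 ± 1.91 CPM per kb in wild type libraries and 11.6 ± 1.43 in the knockout. Cadm3 accounted for 46.0% ± 8.25 of the sum in wild type libraries and 73.2% ± 3.49 in the knockout, and Cadm1 for 37.8% ± 6.49 and 11.8% ± 2.24.

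**Figure D2:**
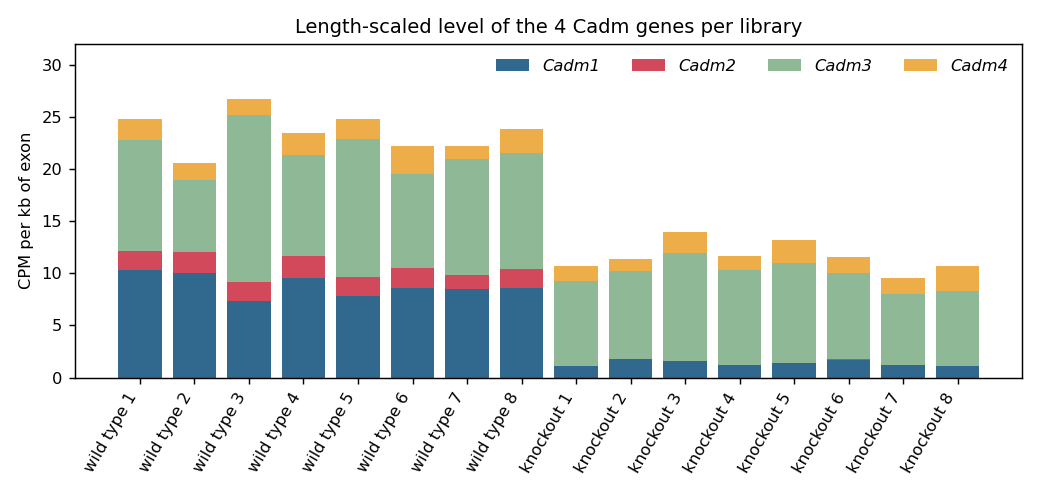
CPM per kilobase of annotated exon of the 4 Cadm genes, stacked for each library (8 wild type, 8 knockout). The knockout stacks reach 9.52 to 14.0 and the wild type stacks 20.6 to 26.7, with a smaller Cadm1 segment and no visible Cadm2 segment in the knockout.

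Among proteins that hold the Cadm tail, 9 of 14 tested genes passed the threshold, 3 higher and 6 lower, where 48.3% of all tested genes did. With total counts 6 were higher and 2 lower. Epb41l3, a cytoskeletal adaptor that binds the Cadm1 tail, rose from 21.1 ± 4.37 to 42.3 ± 3.74 CPM (log2 difference 1.00, SE 0.105, adjusted p = 1.80e-07). The scaffold gene Mpp2 rose from 3.88 ± 0.889 to 17.0 ± 1.75 CPM (2.13, adjusted p = 4.48e-11) and Mpp6, also called Pals2, by 1.04. The lower genes were led by Lin7b, which fell by 1.32 (adjusted p = 5.87e-06) and overlaps genes on the other strand. Epb41 and Epb41l2 fell by 0.49 each, Epb41 with overlap between the groups, and Epb41l2 did not keep its call under 1 of 26 alternatives.

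Dlgap1 (ENSMUSG00000003279, chromosome 17) encodes the scaffold protein GKAP. It had 231 to 537 counts per wild type library with a median of 331, and 13 to 39 per knockout library with a median of 19. In CPM the wild type ran from 23.0 through a median of 32.02 to 46.2, and the knockout from 0.963 through 1.48 to 1.89. Wild type library 5 was highest and wild type library 7 lowest, and every knockout library stayed above the floor. The means were 32.5 ± 8.38 and 1.44 ± 0.308 CPM (SD, n = 8), a log2 difference of -4.48 (SE 0.176), or 22.3-fold. The paralogue Dlgap4 was at similar levels in both genotypes (94.2 and 102.6 CPM, log2 difference -0.12, adjusted p = 0.267), and Dlgap2 and Dlgap3 had 1 and 13 counts in total.

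Of 24 other postsynaptic scaffold genes 19 were tested, and 3 were higher and 10 lower, 13 in all, where 48.3% of all tested genes were called. With total counts 6 were higher and 5 lower. The Homer genes, whose products tie Shank to metabotropic receptors and calcium stores, went in different directions. Homer1 rose from 19.0 ± 3.03 to 86.8 ± 11.4 CPM (2.19, adjusted p = 1.34e-12, edgeR) and Homer2 fell from 56.8 ± 7.96 to 16.8 ± 5.14 CPM (-1.75, adjusted p = 1.08e-08), both without overlap. Shank1, which binds Dlgap proteins, fell by 1.73 (adjusted p = 4.07e-06). Shank3 fell from 18.66 to 8.58 CPM (adjusted p = 0.0405) and lost the call under 15 of 26 alternatives, and its groups overlapped. Gphn and Baiap2 rose by 0.67 and 0.58, Baiap2 with overlap between the groups.

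Grid1 (ENSMUSG00000041078, chromosome 14) was barely detected. Its highest library had 4 counts, in knockout library 1, and the sums were 13 counts in the knockout (exact Poisson 95% interval 6.92 to 22.2) and 8 in the wild type (3.45 to 15.8). The knockout ranged from 0 to 0.324 CPM and the wild type from 0 to 0.156 CPM, with overlap. No fold is given, since all but 1 library were at or under the floor. A difference in Grid1 was not detectable at this depth.

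Among other glutamate receptor genes, Grin1, the obligatory subunit of NMDA receptors, rose from 3 counts over all wild type libraries to 5.22 to 12.0 CPM in the knockout, at least 26.8-fold above the floor. Grin1 overlaps a gene on the other strand. Gria3 and Grin3b fell by 1.80 and 1.77, and Cacng7 rose by 1.69. Of the exon bases of Grin3b 32.1% overlap Tmem259 on the other strand, so its counts are uncertain. Of the 41 other glutamate receptor and auxiliary genes only 10 passed the filter, and 19 had at most 3 counts in every library. Of the 10, 2 were called higher and 4 lower, where 25.6% of all tested genes were higher and 22.7% lower. With total counts 3 were higher and 4 lower.

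Of 55 other synaptic adhesion genes 36 were tested, and 10 were higher and 15 lower (69.4% called, where 48.3% of all tested genes were). With total counts 12 were higher and 10 lower. Il1rapl1 and Nlgn1, which encode postsynaptic partners of presynaptic receptors, fell from 6.45 ± 1.17 to 0.214 ± 0.138 CPM (-4.98, adjusted p = 7.41e-11) and from 6.23 ± 2.29 to 0.451 ± 0.296 CPM (-3.82, adjusted p = 5.96e-09). Flrt1, a ligand of latrophilins, fell by 3.17 (adjusted p = 3.96e-08). The L1-family gene Chl1 rose from 1.33 ± 0.556 to 52.8 ± 16.8 CPM (5.29, SE 0.268, edgeR adjusted p = 3.90e-11), and its groups were apart. Pvr, a nectin-like gene related to the Cadm genes, rose by 1.70 (adjusted p = 3.38e-10), and Slitrk1 by 2.00 with overlap (adjusted p = 4.34e-04).

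Of 50 other genes of vesicle priming and SNARE-driven fusion 37 were tested and 16 (43.2%) passed, 8 higher and 8 lower, where 48.3% of all tested genes did. With total counts 29 passed, 25 of them higher. The calcium sensor gene Syt7 fell from 13.1 ± 4.10 to 1.62 ± 0.656 CPM (-2.96, adjusted p = 5.04e-09), and Syt9 rose by 1.17 (adjusted p = 3.47e-07). Syt12 and Rims1 fell by 1.98 and 1.48, and Stxbp2 and Bsn rose by 0.91 and 0.98. The groups overlapped for Syt12, Rims1 and Bsn. Syt12 was scarce in the knockout (mean 0.468 CPM), and 17.2% of its exon bases overlap a gene on the other strand. Syt5 had 1 count over all wild type libraries and 3.62 ± 0.925 CPM in the knockout, at least 13.6-fold above the floor. The core neuronal fusion genes Snap25 and Syt1 had 3 counts and 1 count over all libraries.

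Few genes of dense-core vesicle content were measurable. Of 28, 8 were tested, 1 higher and 4 lower, and the same numbers were called with total counts. Of all tested genes 25.6% were higher and 22.7% lower. Chga, Chgb and Scg2, the granins that define such vesicles, had 80, 21 and 13 counts in total and were not tested. All 80 counts of Chga were in knockout libraries (0.716 ± 0.955 CPM, SD, n = 8), unevenly spread among them. Penk, an opioid peptide precursor, rose from 0.319 ± 0.228 to 6.99 ± 1.85 CPM (4.36, adjusted p = 5.33e-10, edgeR) and overlaps a gene on the other strand. Cpe, a prohormone-processing enzyme, fell from 57.5 ± 7.55 to 17.8 ± 6.49 CPM (-1.68, adjusted p = 3.29e-07). Sv2b and Sv2c fell by 1.19 each, Sv2c with overlap between the groups.

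Over the 7 lists 129 of 226 genes were tested, and 77 (59.7%) passed, 27 higher and 50 lower, where 48.3% of all tested genes did. The median log2 difference was -0.12 against 0.02 over all tested genes. With total counts 85 (65.9%) passed, 54 higher and 31 lower, where 65.4% of all tested genes did, and the median was 0.19 against 0.32. The direction of the smaller differences thus depended on the scaling, whereas Il1rapl1, Nlgn1, Flrt1 and Syt7 stayed lower and Grin1, Chl1, Penk and Homer1 stayed higher under all 26 alternatives.

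**Figure D3:**
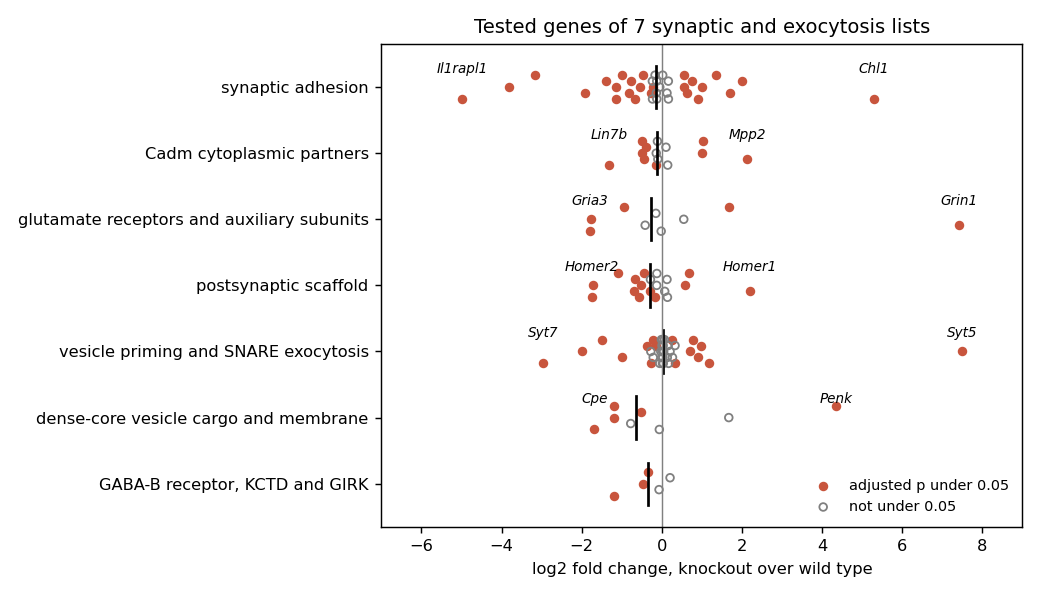
Log2 fold change of the tested genes of 7 gene lists, less 1 that is not shown (points, spread vertically for legibility only), filled where the adjusted p was under 0.05, with the median of the whole list (bar). Il1rapl1, Syt7, Cpe and Homer2 mark the low ends of their lists and Chl1, Grin1, Homer1, Syt5 and Penk the high ends.

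Nerve and glia could contribute RNA to these strands, so their markers are given beside the synaptic genes. The tissue markers were present: all 12 tenocyte markers were tested, summing to 139400 to 389420 CPM in wild type libraries and 83972 to 185590 CPM in the knockout. Of these 1 was higher and 8 were lower, where 25.6% of all tested genes were higher and 22.7% lower. The mean score (log2 CPM) of these markers differed by -0.74 without overlap (exact permutation test, adjusted p = 0.000855, n = 8). Their part in the differences of the synaptic genes was not tested. Of 15 neuron markers, 4 were tested, 1 higher and 2 lower, and Snap25, Syt1 and Nefl were at or under 3 counts in every library. The summed neuron list ran from 139 to 209 CPM in wild type libraries and from 21.1 to 56.6 CPM in the knockout, and Map2 alone made up 118 to 200 and 8.31 to 30.8 CPM of it. Its mean score differed by -0.29 (exact permutation test, adjusted over 11 marker lists, p = 0.0127, n = 8), which was lost with total counts.

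Schwann cell markers moved the other way. Their sum was 38.8 to 59.1 CPM in wild type libraries and 60.5 to 128 CPM in the knockout. Of 8 tested markers 4 were higher and 0 lower, where 25.6% of all tested genes were higher and 22.7% lower. The score differed by 0.80 (exact permutation test, adjusted p = 0.00456, n = 8). Scn7a accounted for 14.2 to 59.6 CPM of the knockout sum, whereas the lineage gene Sox10 reached at most 0.764 CPM and Gfra3 was at or under 3 counts in every library. Endothelial markers rose from sums of 41.6 to 61.7 CPM to 66.1 to 655 CPM. Their score differed by 3.07 (exact permutation test, adjusted p = 0.000855), and of 11 tested 9 were higher and 0 lower. Mural cell markers went from sums of 210 to 391 CPM to 278 to 2057 CPM, with overlap. Their score differed by 2.97 (exact permutation test, adjusted p = 0.00114), and of 8 tested 6 were higher and 1 lower. The lower one was Cspg4 (log2 difference -0.27, edgeR adjusted p = 0.0319), and Acta2 was not called. The mural sum includes Des, which reached 119 CPM (wild type) and 659 CPM (knockout). Markers of mast cells, which use Cadm1 for adhesion, summed to 0.349 to 3.28 CPM in wild type libraries and 1.11 to 24.2 CPM in the knockout. Kit, also made by other cells, held most of this sum at 0.850 to 20.5 CPM in the knockout and was the only one of the 10 markers tested. Cpa3, Mcpt4, Cma1 and Tpsb2 reached at most 0.921 CPM, and Fcer1a, Ms4a2 and Tpsab1 were at or under 3 counts in every library. The part of these cell types in the differences of the synaptic genes was not tested.

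Within a genotype, the contrast that chose the genes plays no part. Of 33 pairs of a gene and a Schwann cell, endothelial or skeletal muscle score, 0 passed with adjustment (lowest adjusted p = 0.431, exact permutation tests over 8 libraries) and 3 had an unadjusted p under 0.05. In the knockout Kctd16 was lower where the endothelial score was higher (Pearson r = -0.718, exact permutation p = 0.0490, adjusted 0.468; Spearman rho = -0.833, p = 0.0154, adjusted 0.359; n = 8), and r was -0.510 without the 2 libraries farthest from the median score. Cadm3 in the knockout had r = -0.823 with the skeletal muscle score (p = 0.0131, adjusted 0.431; rho = -0.810, p = 0.0218, adjusted 0.359; exact permutation tests, n = 8), and -0.574 without those 2. With the endothelial score, Cadm3 in the knockout had r = -0.729 (exact permutation p = 0.043, adjusted 0.468) and rho = -0.762 (p = 0.0368, adjusted 0.404, n = 8). This r was -0.889 without the 2 libraries farthest from the median of that score. With 8 libraries only strong relations could be seen.

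Cadps and Kctd16 were the most alike pair of members among knockout libraries. Their log2 CPM had Pearson r = 0.874 (exact permutation p = 0.00201, adjusted over 25 pairs of members 0.0502) and Spearman rho = 0.857 (p = 0.0107, adjusted 0.192, n = 8). Without libraries 1 and 6, the farthest from the median of Cadps, r was 0.787. In the wild type Cadm1 and Cadm3 were opposed, with r = -0.787 (exact permutation p = 0.0194, adjusted 0.242) and rho = -0.833 (p = 0.0154, adjusted 0.192, n = 8), and r was -0.887 without libraries 1 and 3. Neither pair passed with adjustment, and these pairs were examined after the values were seen.

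The tested genes whose levels most resembled each of these genes over all 16 libraries were found among 13416 genes by Pearson correlation of log2 CPM, which here mainly repeats the genotype. For Cadps they were Rnf217 (r = 0.998), Sfmbt2 (0.997) and Atp7b (0.996), and for Kctd16 A2m (0.998), Sfmbt2 (0.997) and Atp7b (0.996). For Cadm2 they included Coch (0.982) and Khdrbs3 (0.982), and for Dlgap1 Gpr27 (0.988), Slco2a1 (0.986) and Ltbp1 (0.985). With the genotype mean subtracted, Rnf217 again led for Cadps (0.842), followed by Armc4 and Shmt2. The leaders then were Gm43609 for Kctd16 (0.869), Shf for Cadm2 (0.749) and Lrrc8b for Dlgap1 (0.858). These are the highest of many values and are given as a description. None is given for Grid1, whose counts are too sparse. The values for Cadps, Kctd16 and Cadm2 also include libraries near or under the floor. Cadps and Kctd16 had 0 or 1 count per wild type library, and Cadm2 had 0 to 9 per knockout library.

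Most members have a large locus, a feature that is not particular to them. The synaptic adhesion genes Il1rapl1 and Nlgn1 span 1375 and 906 kb. Whether genes with synaptic roles in general span more than other genes was not tested, so their choice may have carried size with it. By the GENCODE M21 annotation of GRCm38, 7 of the 9 members span 200 kb or more, which holds for 4.96% of all tested genes. Of these 7, Grid1 and Cadps2 were not themselves tested. Cadm2 spans 965 kb, Dlgap1 852 kb, Grid1 763 kb, Cadps2 577 kb, Cadps 451 kb, Cadm1 327 kb and Kctd16 275 kb. Cadm3 and Cadm4 span 34.4 and 22.5 kb, where the median is 21.5 kb. Grid1 says nothing on whether size and difference go together, since its counts were too low for a difference to be seen. Over all genes the balance of calls shifted with span. Of 10850 tested genes under 50 kb, 24.6% were higher and 20.6% lower in the knockout, and of 134 genes of 500 kb or more, 20.1% were higher and 41.8% lower. Without Cadm2 and Dlgap1, the tested members in that class, the shares were 20.5% and 40.9%. With total counts the shares of all 134 genes, Cadm2 and Dlgap1 included, were 39.6% and 29.9%, against 55.6% and 8.03% under 50 kb. This comparison was made after the values were seen and has no test.

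**Figure D4:**
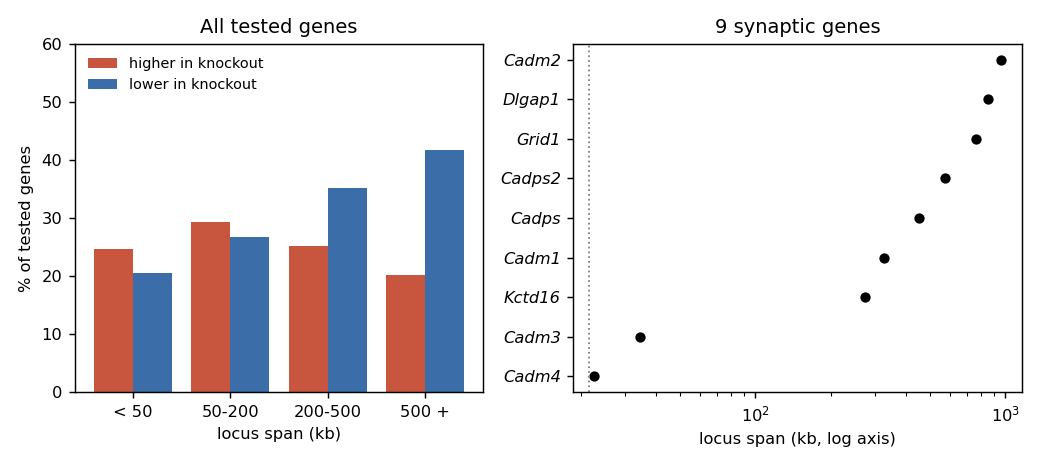
Left, share of tested genes called higher or lower in the knockout (bars, in %) by the span of the locus in kilobases. The lower share is 20.6% under 50 kb and 41.8% at 500 kb or more. Right, the span of each of the 9 genes on a log axis, with the median of all tested genes as a dotted line, to which Cadm4 and Cadm3 lie closest.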

How the data were processed

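The 8 wild type and 8 knockout libraries took their genotype from the labels. The authors deposited 1 file of raw counts per gene for each library, per the file headers. The submitters' processing notes name kallisto, featureCounts and GRCm39 with no version or role, and the use of strand is not given in the sources used here. Symbols were matched for 25614 of 25719 identifiers. The genes and gene lists were chosen with earlier results of these data known.

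Counts were fitted with edgeR 4.0.16 in R 4.3.3 (TMM, filterByExpr, robust quasi-likelihood F test, Benjamini-Hochberg over 14803 tested genes). DESeq2 1.42.0 was an alternative, as were total counts, other filters, a prior count of 0.5 in place of 2, covariates for skeletal muscle and Y-linked level, a replicate block and left-out libraries. Exon lengths, spans and overlaps came from GENCODE M21 on GRCm38, whose gene models may differ from those counted. Marker scores are means of log2 CPM, compared by 2-sided exact permutation tests. From each list the text names up to 3 genes with the largest increase and decrease among those called with a mean log2 CPM of at least 0; Gabbr1, Gabbr2, Kctd12, Dlgap2, Dlgap3, Dlgap4, Chga, Chgb, Scg2 and Syt5 were added after their values were seen. In the lists, 1 gene is counted but not reported here. On simulated counts of this comparison (14758 genes tested) 95 of 100 genes changed 2-fold and 99 of 100 changed 4-fold were recovered, and 2 of 196 calls were false. Only 200 genes were changed there, in both directions and none of low count, whereas 48.3% of tested genes were called in the data. The simulation therefore does not speak to low counts, or to scaling where so many genes differ.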

Additional observations from a re-analysis of the deposited data

Results flagged for a closer look

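In 3 of 35 checks 1 of the 8 libraries of a group stood apart from the others, by Dixon's 95% criterion on the gap to its neighbour. About 1 check in 20 does so by chance. Cadm2 in wild type library 7 was at a log2 CPM of 3.72, where the next was 4.17 and the highest 4.39. Cadps2 in wild type library 5 was at 0.98, where the next was -0.10 and the lowest -0.92. The mast cell marker score of wild type library 7 was -1.66, where the next was -2.13 and the lowest -2.56.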

How the results depend on the processing

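The number of genes called was 7151 and lay between 6101 and 9685 under 26 alternatives, and between 6790 and 7151 with 1 library left out. Cadm1 kept direction and side of the threshold in all 26. The log2 differences of the genes chosen for their difference ranged from -6.63 to -5.89 (Cadm2), -4.56 to -4.17 (Dlgap1), 9.47 to 10.18 (Cadps) and 9.33 to 9.85 (Kctd16). Cadm3 lost its call at -0.089 with total counts, -0.36 without the 4 libraries highest in Scx, and -0.22 without the 4 highest in skeletal muscle markers, and ranged from -0.44 to -0.28 with 1 library left out. Cadm4 was 0.11 with total counts. For pathway lists, no filter on low counts gave 15 called glutamate receptor genes (main value 6), 12 dense-core vesicle genes (5) and 5 GABA-B receptor genes (3), since more genes were tested; a mean count of at least 10 gave 8 dense-core vesicle genes, and total counts 29 vesicle priming genes (16). With total counts the marker score differences were -0.10 for neuron, 0.44 for macrophage, -0.093 for keratinocyte, 0.038 for melanocyte and 0.27 for chondrocyte. A prior count of 0.5 gave -0.28 for neuron and -0.20 for keratinocyte. Correlations that changed sign with total counts were 0.0688 (Cadm2, wild type, endothelial) and 0.0150 (Cadm4, wild type, Schwann cell). Except for the filter, the cause was not tested. With the replicate number as a block 7010 genes were called. Same-numbered libraries had correlations from -0.40 to 0.39, above 0.1 in 3 pairs, so the numbers were not read as pairing. Depth limits Grid1 and Cadps2.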

Other observations

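Other genes of long loci also differed between genotypes, in both directions. Erbb4, a neuregulin receptor gene, was at 0.159 CPM in knockout and 12.3 in wild type libraries (log2 difference -6.26), and Ptprt and Rgs6 had log2 differences of -3.86 and -3.50. Dpp6 and Dpp10, which encode auxiliary subunits of potassium channels, went the other way, at 87.3 and 2.70 CPM for Dpp6 and 31.4 and 0.920 CPM for Dpp10. These genes were chosen after their values were seen.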
